A study of Rattus norvegicus with 6 samples.

Results

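The chromatin around 9 genes for G protein coupled receptors of the pancreatic islet was examined: *Glp1r*, *Gipr*, *Gcgr*, *Ffar1*, *Adra2a*, *Chrm3*, *Sstr1*, *Sstr2* and *Sstr3*. Every accessible site that the deposited annotation gives one of these genes as its nearest feature was taken, which gave 91 of 101603 distinct sites. The rule uses no measured value, although the genes themselves were picked with earlier results of these data known. Of the 91 sites, 9 were of the TSS class, 10 of the proximal class and 72 of the distal class. The annotation sets these classes at 1000 bp and 10000 bp from the gene start, measured from the first base of the site, so that the near edge of a proximal site can lie closer. *Adra2a* and *Chrm3* held 26 sites each, *Sstr1* 13, *Glp1r* 9, *Sstr2* 7 and *Gipr* 4. *Gcgr*, *Ffar1* and *Sstr3* held 2 each.

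ATAC-seq, in which the transposase Tn5 inserts adapters into open DNA, was run on dissociated islet cells of Sprague-Dawley rats at 2 ages. The Adult group held 3 libraries (replicates 4, 5 and 6), prepared from 3 male rats of around 90 days. The P10 group held 3 libraries (replicates 1, 2 and 3), prepared from mixed pups of 3 litters at 10 days after birth. Male and female pups were kept, but which pups and sexes went into which library is not given in the sources used here. No animal carried a transgene or received a treatment, and age, the pooling of pups and any difference in sex cannot be told apart. Islets hold several cell types, so a change of openness within a cell type and a change in the share of that type cannot be told apart either. The adult libraries held 11903909, 10319487 and 7916919 Tn5 integrations within sites, and the P10 libraries 21168463, 13491534 and 18108935. The receptor sites took 0.0647%, 0.0595% and 0.0623% of them in the adults and 0.0705%, 0.0659% and 0.0661% at P10.

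These receptors span the cell membrane and pass a hormone, transmitter or nutrient signal to heterotrimeric G proteins, by which β-cells and their neighbours adjust hormone release to more than glucose. The receptors for GLP-1, GIP and glucagon couple to Gs and raise cAMP, which amplifies insulin secretion. The fatty acid receptor encoded by *Ffar1* and the muscarinic receptor encoded by *Chrm3* couple to Gq and act through phospholipase C and calcium, whereas the α2A-adrenergic receptor and the somatostatin receptors couple to Gi and restrain secretion.

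RefSeq promoters (build GRCr8, 250 bases before to 50 after a gene start) were available for 8 of the 9 genes by gene identifier, with 2 entries for *Gcgr* and none for *Gipr*. They are shown for 4 genes whose starts are described below: *Glp1r*, *Chrm3*, *Sstr1*, the only gene with a called site at its start, and *Sstr2*. Capitals mark matches, on either strand, to the letters of the GC box (GGGCGG), the CCAAT box (CCAAT), the cAMP response element (TGACGTCA) or the TATA box (TATAAA). The sites themselves are in build Rn5 and were not carried over to GRCr8, so a match is a description of the reference and not of a measured site. *Chrm3* is on the minus strand in the Rn5 annotation but on the plus strand in GRCr8. Whether its promoter here is the start described below was not tested.
*Glp1r* promoter, chr20:8973143-8973442, plus strand: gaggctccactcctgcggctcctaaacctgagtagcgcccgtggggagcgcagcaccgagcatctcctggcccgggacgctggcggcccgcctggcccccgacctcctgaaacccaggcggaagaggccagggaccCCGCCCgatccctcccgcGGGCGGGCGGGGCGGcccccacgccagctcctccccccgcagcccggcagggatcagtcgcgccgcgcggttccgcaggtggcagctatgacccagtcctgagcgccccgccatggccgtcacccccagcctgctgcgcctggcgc
*Chrm3* promoter, chr17:64696677-64696976, plus strand: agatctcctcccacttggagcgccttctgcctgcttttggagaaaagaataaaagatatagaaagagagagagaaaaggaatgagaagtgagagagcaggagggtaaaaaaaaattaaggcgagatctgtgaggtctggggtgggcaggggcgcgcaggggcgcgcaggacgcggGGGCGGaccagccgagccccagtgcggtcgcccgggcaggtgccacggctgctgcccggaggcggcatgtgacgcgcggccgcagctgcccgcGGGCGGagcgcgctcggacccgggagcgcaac
*Sstr1* promoter, chr6:81567233-81567532, plus strand: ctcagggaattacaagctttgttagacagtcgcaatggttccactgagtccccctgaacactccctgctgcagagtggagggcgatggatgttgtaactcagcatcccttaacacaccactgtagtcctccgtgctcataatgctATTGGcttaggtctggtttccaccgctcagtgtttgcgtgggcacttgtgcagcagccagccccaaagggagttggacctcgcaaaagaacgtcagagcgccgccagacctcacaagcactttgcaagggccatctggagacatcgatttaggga
*Sstr2* promoter, chr10:99163103-99163402, plus strand: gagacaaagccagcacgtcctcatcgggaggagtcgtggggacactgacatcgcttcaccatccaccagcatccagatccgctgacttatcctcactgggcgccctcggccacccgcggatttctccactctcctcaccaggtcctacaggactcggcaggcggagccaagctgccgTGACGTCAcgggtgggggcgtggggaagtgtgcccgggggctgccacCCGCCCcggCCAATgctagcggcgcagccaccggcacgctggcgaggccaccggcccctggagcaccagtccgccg
The *Glp1r* promoter held 4 GC boxes, which overlap in part, and 32 CpG dinucleotides, and the *Chrm3* promoter held 2 GC boxes and 28 CpG. The *Sstr1* promoter held no GC box, 1 CCAAT box and 10 CpG. The *Sstr2* promoter held 1 cAMP response element, 1 GC box, 1 CCAAT box and 26 CpG. Over 33469 RefSeq promoters of the same length the median was 7 CpG, and 33.1% held a GC box, 37.5% a CCAAT box, 1.83% a cAMP response element and 14.2% a TATA box.

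Single sites around the receptor genes differed between P10 and adult in both directions, at about the rate of all sites. The called sites were mostly distal, as were the receptor sites themselves. The quasi-likelihood F test of edgeR was fitted over all 101603 sites, and a site was called at p under 0.05 and a false discovery rate (FDR) under 0.2. Fold changes are log2 of Adult over P10, so that Up means higher in the adult. Of the 91 receptor sites 16 were called (17.6%), against 18.9% of all sites. The calls were 7 Up (7.69%) and 9 Down (9.89%), where all sites gave 12.3% Up and 6.63% Down. The share called is near the background. Over all calls 65.0% were Up, or 49.3% when libraries were scaled by their column sums, which left the 7 receptor Up calls and gave 12 Down. With total reads as library size no receptor site was called Up, and 3 of the 7 Up sites (*Gcgr*, *Adra2a* at chr1:282605232 and *Chrm3* at chr17:66068252) had a negative fold change, while the median of all sites moved to -0.84. The median log2 fold change was -0.03 over the receptor sites and -0.01 over all sites. Values of the 2 ages did not overlap at 21 receptor sites (23.1%), against 24.7% of all sites.

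The calls fell in every class. In the TSS class 1 of 9 sites was called, against 10.6% of all sites of that class. In the proximal class 2 of 10 were called, against 17.9%, and in the distal class 13 of 72, against 20.2%. No receptor site of the TSS class was called Up by edgeR, and 0 were Up at an unadjusted p under 0.05, also with DESeq2 and limma voom. The receptor sites were neither deeper nor shallower than the rest to a large degree, with a median of 68.5 integrations a site and library against 64.8. *Adra2a* had 2 Up and 2 Down, *Chrm3* 3 Up and 2 Down, *Sstr1* 3 Down, *Gipr* and *Sstr2* 1 Down each, and *Gcgr* and *Sstr3* 1 Up each. *Glp1r* and *Ffar1* had 0 calls by edgeR, 0 at an unadjusted p under 0.05, and 0 with DESeq2 or limma voom. With total reads as library size, 3 *Glp1r* sites and both *Ffar1* sites were called Down.

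**Figure D1:**
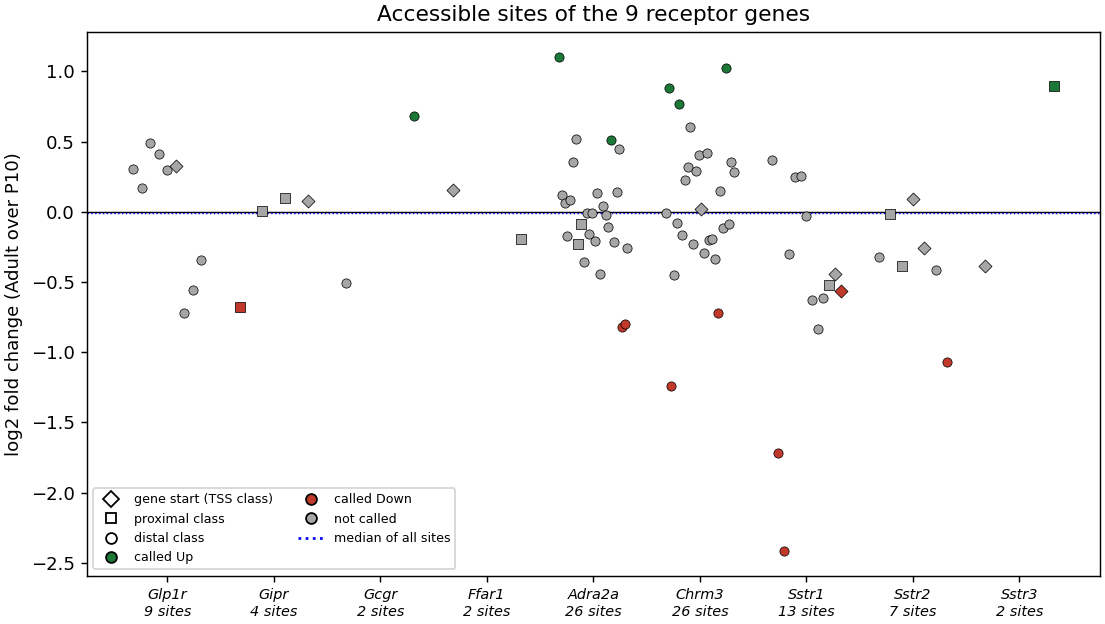
The log2 fold change (Adult over P10) of each of the 91 sites, by gene and in order of position within a gene, with the shape giving the class and the colour the call; the dotted line is the median of all sites (-0.01). Called sites lie on both sides of 0, and the lowest point, at -2.42, belongs to *Sstr1*.

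With TMM scaling, 1 of the 9 sites at gene starts was called by edgeR, and limma voom called 1 more, also of *Sstr1*. With total reads as library size, the sites over the starts of *Chrm3* (-0.80, FDR 0.011), *Sstr1* (-1.28, FDR 0.0027), *Sstr2* (-1.10, FDR 0.0097) and *Gipr* (-0.79, FDR 0.057) were called Down. So were the *Sstr1* site just inside the gene (-1.37, FDR 0.0022) and the sites by the starts of *Sstr3* (-1.26, FDR 0.0072) and *Ffar1* (-0.72, FDR 0.074). In that setting the median of all sites was -0.84. Values below are CPM (integrations at the site scaled to library size with TMM factors), given for adult replicates 4, 5 and 6 and then P10 replicates 1, 2 and 3, with mean ± SD over n = 3. A standard error (SE) is the one implied by the F statistic, and an FDR is over all sites. The site over the *Chrm3* start (chr17:66216229-66217884, Rn5) had 41.4, 42.6 and 42.7 CPM in the adults and 37.5, 44.0 and 43.5 at P10. Its log2 fold change was 0.02 (SE 0.16, FDR 0.967), with nearly the same mean at both ages (42.2 ± 0.710 and 41.6 ± 3.63 CPM). It was the widest of the start sites and its replicates were the most alike.

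Per kilobase of site, the mean level over all 6 libraries was 27.1 ± 8.46 CPM per kb (SD, n = 6) at the *Gipr* start, 25.3 ± 1.42 at *Chrm3*, 24.1 ± 6.22 at *Ffar1* and 23.8 ± 6.26 at the upstream one of 2 *Sstr1* start sites. A lower group followed. It held the 2 *Sstr2* start sites (15.5 ± 3.56 and 15.01 ± 3.05), the second *Sstr1* site (15.2 ± 3.90), *Sstr3* (14.0 ± 3.91) and *Glp1r* (13.7 ± 4.46). Neighbours in this order differed by less than the larger of their SDs, except between the upstream *Sstr1* site and the next. *Gcgr* and *Adra2a* had no site of the TSS class. The nearest sites of *Gcgr* lay 13049 bp and 15337 bp upstream of its start, and those of *Adra2a*, of the proximal class, 694 bp upstream and 2308 bp downstream.

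**Figure D2:**
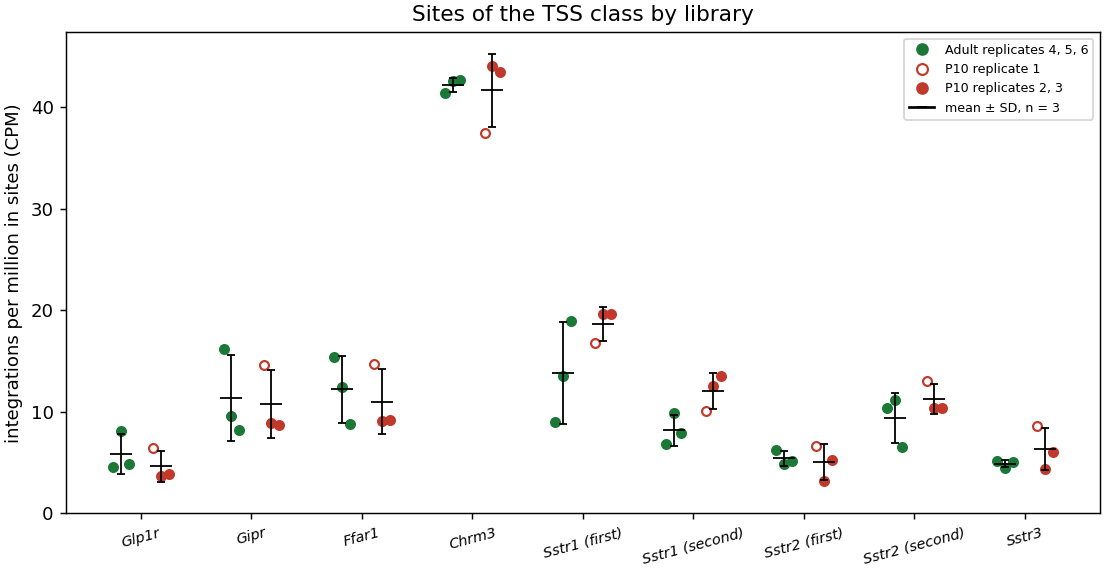
CPM in each library at the 9 sites of the TSS class, with the mean ± SD of each age (n = 3); for *Sstr1* and *Sstr2* the first is the site farther upstream. The *Chrm3* site sits between 37.5 and 44.0 in all libraries, and only the second *Sstr1* site has adults (6.78 to 9.84) wholly below P10 (10.1 to 13.5).

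Among the receptors of the glucagon family, 2 single sites were called with TMM scaling and the gene starts were not. *Glp1r* encodes the receptor for GLP-1, the gut hormone that amplifies insulin secretion. The site over its start (chr20:11768166-11768548) had 4.52, 8.08 and 4.90 CPM in the adults and 6.41, 3.64 and 3.86 at P10, and the ages overlapped (log2 fold change 0.32, SE 0.30, FDR 0.607). Of its 9 sites 6 had a positive fold change, from 0.17 to 0.49, and the 3 downstream of the start had negative ones, from -0.34 to -0.72. The 5 distal sites upstream lay between 11640 bp and 35079 bp from the start.

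P10 replicate 1 stood apart at this gene. Summed over the 9 sites, *Glp1r* had 47.1, 44.7 and 31.1 CPM in the adults and 51.6, 26.03 and 28.9 at P10. P10 replicate 1 was above all other libraries, while the other 2 P10 libraries were below all adults. Without P10 replicate 1, 3 distal *Glp1r* sites were called Up, with log2 fold changes of 0.76 to 0.98 and FDR of 0.193 to 0.0361. The highest of them, 12524 bp upstream of the start (chr20:11755635-11755990), had 12.3, 7.89 and 6.57 CPM in the adults and 11.1, 4.28 and 4.71 at P10. Without adult replicate 6, 1 of these sites (chr20:11746865-11747242) was called as well (0.77, FDR 0.154). These 3 sites are named because leaving out 1 library changed their call.

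*Gipr* encodes the receptor for GIP, the other incretin. All 4 of its sites lay within 10 kb of its start, in an interval with *Snrpd2* and *Eml2* on its sides. The start site (chr1:81340160-81340566) had 16.2, 9.54 and 8.25 CPM in the adults and 14.6, 8.92 and 8.72 at P10 (log2 fold change 0.08, SE 0.26, FDR 0.914). The 2 ages covered the same range there. The called site, inside the gene 5918 bp from its start (chr1:81333884-81334311), had 6.60, 7.89 and 3.09 CPM in the adults and 10.7, 10.4 and 7.51 at P10. It was lower in the adult by a log2 fold change of -0.68 (SE 0.28, FDR 0.147), though the highest adult library exceeded the lowest P10 library. The call was lost without adult replicate 6, P10 replicate 1 or P10 replicate 2, with FDR of 0.267 to 0.497. A second site 54 bp away was not called, nor was the one 655 bp from the start, the most open of the 4.

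*Gcgr*, which encodes the glucagon receptor, had 2 distal sites upstream of its start, with fold changes of opposite sign. The nearer one (chr10:109287736-109288043) had 9.04, 6.33 and 6.57 CPM in the adults and 5.49, 4.35 and 3.86 at P10. The ages did not overlap, and it was called Up (0.68, SE 0.27, FDR 0.127). The call was lost without adult replicate 4, P10 replicate 2 or P10 replicate 3 (FDR 0.342 to 0.408). The farther one (chr10:109285531-109285755) had a log2 fold change of -0.50 (SE 0.28, FDR 0.315), and was called Down without adult replicate 4 (-0.74, FDR 0.194) and with column sums or total reads as library size.

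*Ffar1* encodes a receptor for long-chain fatty acids that potentiates glucose-stimulated secretion, and sits in a cluster with *Ffar3*. Its site of the TSS class, 874 bp upstream (chr1:90465703-90466184), had 15.4, 12.5 and 8.77 CPM in the adults and 14.7, 9.13 and 9.15 at P10 (0.15, SE 0.25, FDR 0.800). The second, 2035 bp upstream, differed by -0.19 on the log2 scale (SE 0.25, FDR 0.737). Neither difference exceeded the spread between replicates.

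*Chrm3*, the gene of the muscarinic receptor by which acetylcholine from parasympathetic nerves raises insulin release, had 5 called distal sites around an even gene start. Sites reached from inside the gene, 212145 bp past the start, to 377301 bp upstream, and 13 of the 26 lay inside it. The called sites inside the gene were 2 Up and 1 Down. The site at chr17:66026424-66026812 had 12.9, 6.52 and 12.4 CPM in the adults and 7.07, 3.78 and 6.24 at P10 (0.88, SE 0.28, FDR 0.0466). Adult replicate 5 fell within the P10 range there, and the call was lost without adult replicate 4 or P10 replicate 2 (FDR 0.210 and 0.283).

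The next *Chrm3* site, chr17:66031509-66031787, moved the other way, with 0.542, 0.779 and 1.29 CPM in the adults and 1.95, 2.21 and 1.85 at P10. Its log2 fold change was -1.24 (SE 0.43, FDR 0.0749), on 6 to 10 integrations in an adult library. The ages did not overlap, but the call was lost without adult replicate 4 or P10 replicate 2 (FDR 0.253 and 0.221). The site at chr17:66068252-66068786 had 9.85, 7.60 and 10.3 CPM in the adults and 5.53, 5.42 and 5.29 at P10 (0.77, SE 0.25, FDR 0.0496). Every adult library was above every P10 library, and no single library was needed for the call.

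Upstream of *Chrm3* 2 sites were called, and both stayed called whichever library was left out. The site 210845 bp upstream (chr17:66428056-66428637) had 14.2, 8.77 and 13.4 CPM in the adults and 17.5, 21.0 and 21.5 at P10 (-0.72, SE 0.22, FDR 0.033). The site 288739 bp upstream (chr17:66505950-66506281) had 6.23, 5.65 and 5.80 CPM in the adults and 2.42, 3.50 and 2.85 at P10 (1.02, SE 0.29, FDR 0.0238). The first was more open in every P10 library and the second in every adult library. The uncalled 21 *Chrm3* sites ranged from -0.45 to 0.61 in log2 fold change. The nearest other genes were *Zmynd11*, 76792 bp beyond one end of *Chrm3*, and *Zp4*, 1031474 bp beyond the other.

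*Adra2a*, the gene of the α2A-adrenergic receptor through which noradrenaline suppresses insulin release, had 4 called sites, all distal. Its sites ran from 42085 bp upstream to 536812 bp downstream, and the next gene downstream, *Gpam*, lay 1068152 bp beyond its end. The upstream called site (chr1:282135978-282136390) had 6.42, 5.06 and 6.57 CPM in the adults and 2.74, 2.78 and 2.85 at P10. It was higher in the adult by 1.10 (SE 0.29, FDR 0.0134), with the ages far apart, and no single library was needed for the call. This site lies within the neighbouring gene *Shoc2*, although the annotation assigns it to *Adra2a*.

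The 3 other called *Adra2a* sites lay more than 400 kb downstream. The site at chr1:282605232-282606104 had 28.01, 21.3 and 28.2 CPM in the adults and 21.4, 17.1 and 15.7 at P10 (0.51, SE 0.19, FDR 0.104). Adult replicate 5 and P10 replicate 1 were nearly equal there, and the call was lost without adult replicate 4 or 6 or P10 replicate 2 or 3 (FDR 0.252 to 0.352). The site at chr1:282668005-282668498 had 1.81, 2.73 and 2.71 CPM in the adults and 3.21, 5.06 and 4.49 at P10 (-0.82, SE 0.33, FDR 0.133). That call was lost without adult replicate 4, P10 replicate 2 or P10 replicate 3 (FDR 0.293 to 0.405), although the ages did not overlap.

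The site at chr1:282674353-282674946 had 7.41, 6.52 and 7.09 CPM in the adults and 13.2, 13.8 and 9.57 at P10 (-0.80, SE 0.24, FDR 0.0323). It was lower in every adult library and kept its call in all 6 fits. The 2 *Adra2a* sites of the proximal class were not called. The uncalled 22 sites of this gene ranged from -0.44 to 0.52, and 1 of them, at chr1:282649871, was called Up without adult replicate 5 (0.57, FDR 0.153) or without P10 replicate 1 (0.70, FDR 0.0468).

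**Figure D3:**
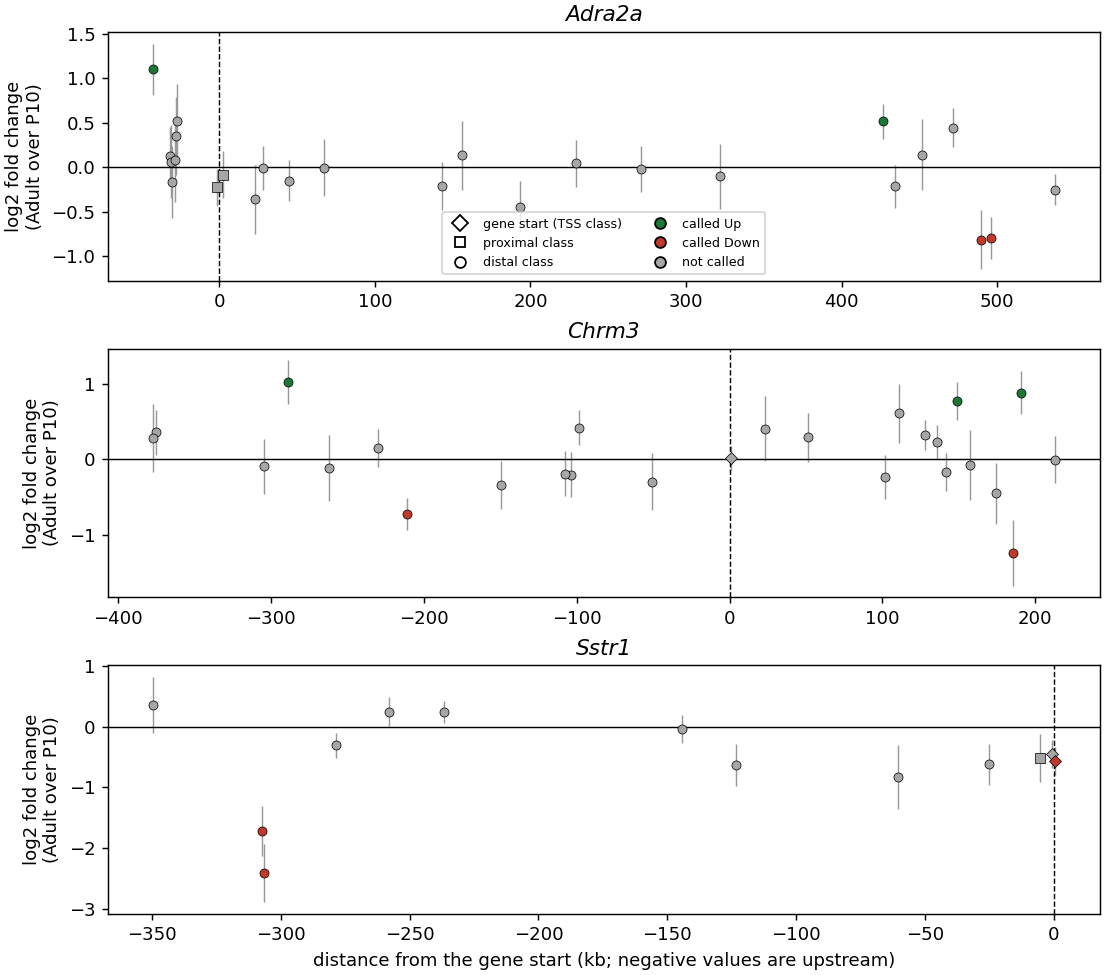
The log2 fold change (Adult over P10, with SE) of each site of *Adra2a*, *Chrm3* and *Sstr1* against its distance from the gene start in kb, negative values being upstream. Called sites of *Adra2a* and *Chrm3* lie on both sides of 0 and far from the start, while the 3 called *Sstr1* sites are a pair 306254 bp and 306746 bp upstream and 1 at the start, all Down.

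The somatostatin receptors pass the signal of somatostatin, made by islet δ-cells, which holds back insulin and glucagon release. *Sstr1* gave the largest log2 fold change of all 91 sites, at sites of low counts where the difference in CPM is small, and its 3 called sites were all lower in the adult. The pair of sites with the strongest change lay 183 bp from each other, 306254 bp and 306746 bp upstream of the start, and because they adjoin they are not independent. The next nearest gene, *Clec14a*, on the far side of *Sstr1*, was 355176 bp and 355668 bp from them. The pair lay in the gap of 709485 bp between *Sstr1* and *Foxa1*. The site at chr6:88477162-88477471 had 2, 8 and 4 integrations in the adults and 44, 39 and 58 at P10, or 0.181, 0.779 and 0.516 CPM against 2.05, 2.78 and 3.07. Its log2 fold change was -2.42 (SE 0.48, FDR 0.0013). The site at chr6:88476637-88476979 had 9, 6 and 11 integrations in the adults and 51, 48 and 62 at P10, which gave -1.72 (SE 0.41, FDR 0.0075). Both were lower in every adult library and stayed called whichever library was left out.

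At the start of *Sstr1*, the site just inside the gene (chr6:88784015-88784681) had 6.78, 9.84 and 7.86 CPM in the adults and 10.1, 12.6 and 13.5 at P10 (-0.56, SE 0.24, FDR 0.154). The ages did not overlap, but adult replicate 5 and P10 replicate 1 were close, and the call was lost without adult replicate 4 or 6 or P10 replicate 2 or 3 (FDR 0.278 to 0.382). The site over the start itself (chr6:88783076-88783756), 259 bp away, had 8.95, 13.5 and 18.9 CPM in the adults and 16.7, 19.6 and 19.6 at P10. Its log2 fold change was -0.44 (SE 0.23, FDR 0.272), and without adult replicate 6, the highest adult, it was -0.73 and was called (FDR 0.068). It was also called Down with limma voom (-0.52, FDR 0.187), with column sums (-0.53, FDR 0.163) and with total reads as library size. In all, 10 of the 13 *Sstr1* sites had a negative fold change. A further site, at chr6:88660586, was called Down without P10 replicate 1 (-0.85, FDR 0.155).

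*Sstr2* encodes the receptor that mediates much of the somatostatin effect on α-cells in rodents. Its start carried a pair of TSS sites 20 bp apart. The one over the start (chr10:101815679-101816366) had 10.4, 11.2 and 6.57 CPM in the adults and 13.01, 10.4 and 10.4 at P10 (-0.25, SE 0.24, FDR 0.611), and the ages overlapped. The called site, 4796 bp past the end of the gene (chr10:101828126-101828536), had 1.99, 2.05 and 2.84 CPM in the adults and 5.81, 5.28 and 3.17 at P10. It was lower in the adult by -1.07 on the log2 scale (SE 0.33, FDR 0.0425), with no overlap, and stayed called whichever library was left out. Of the 7 *Sstr2* sites 6 had a negative fold change.

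*Sstr3*, the gene of the remaining somatostatin receptor examined, had a called site in the opposite direction. The proximal site 3722 bp upstream (chr7:119760114-119760499) had 12.7, 8.47 and 10.4 CPM in the adults and 7.48, 5.56 and 3.97 at P10 (0.89, SE 0.27, FDR 0.0312). Every adult library was above every P10 library, and of the fits that left out 1 library only that without P10 replicate 3 lost the call (FDR 0.203). The site by its start (chr7:119756474-119756874) had 5.15, 4.48 and 5.03 CPM in the adults and 8.55, 4.35 and 6.08 at P10 (-0.38, SE 0.29, FDR 0.492). The difference between the 2 sites was not tested.

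**Figure D4:**
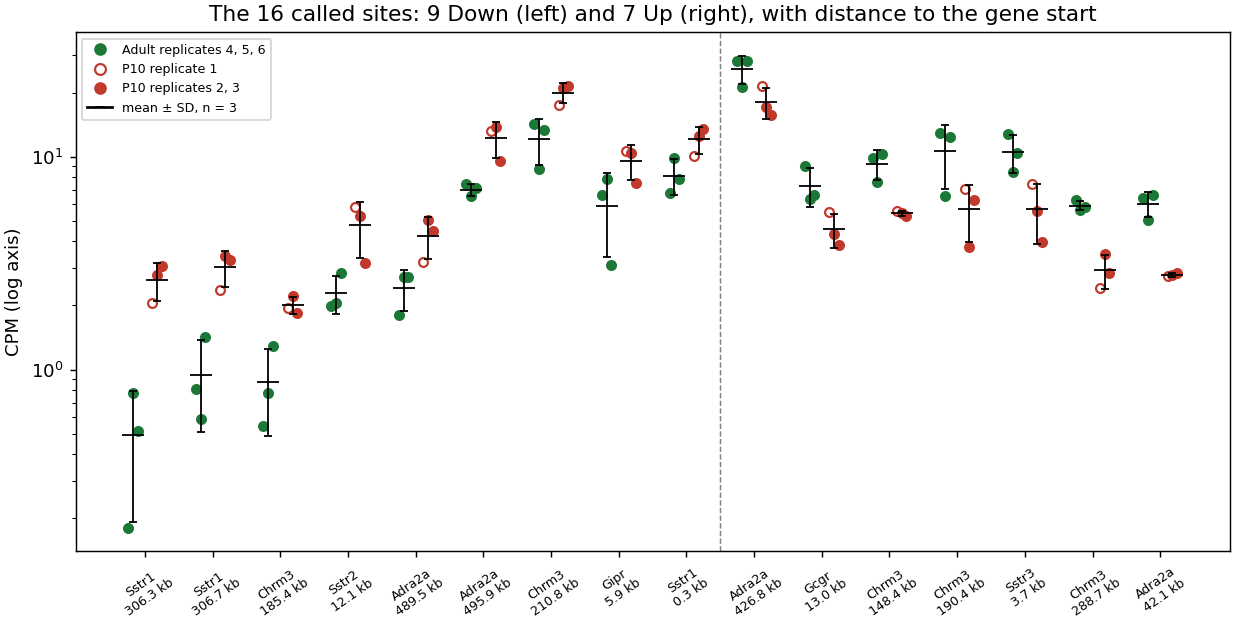
CPM in each library (log axis) at the 16 called sites, ordered by fold change, with the gene and the distance to its start in kb; bars are mean ± SD (n = 3 for each age). The 9 Down sites are at the left, led by the *Sstr1* pair, and the 7 Up sites at the right.

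Summed over all sites of a gene with TMM scaling, the ages overlapped for each of the 9 receptors. With total reads as library size all 9 sums were lower in the adult, with differences from -4.88 CPM for *Sstr3* to -114 for *Adra2a*. Those of *Sstr1* and *Chrm3* were -68.7 and -89.2. With column sums the *Chrm3* difference turned from 10.6 to -1.69 CPM, so these sums depend on the scaling. Leaving out 1 library put the *Chrm3* difference between 1.24 and 21.8 CPM, and for *Gipr*, *Gcgr*, *Ffar1* and *Adra2a* it could turn the sign. The sum for *Sstr1* was 93.6 ± 6.73 CPM in the adults and 107 ± 11.4 at P10 (exact two-sided permutation test, p = 0.2), and for *Sstr2* 43.7 ± 6.10 against 54.4 ± 11.96 (exact permutation p = 0.2). *Chrm3* had 185 ± 20.8 against 175 ± 12.9 and *Adra2a* 188 ± 17.2 against 192 ± 7.77 CPM. The other 5 genes gave exact permutation p-values from 0.3 to 1.0, and with 3 libraries an age no p-value under 0.1 is possible.

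P10 replicate 1 was the highest P10 library at all 4 *Gipr* sites, both sites of *Gcgr*, *Ffar1* and *Sstr3*, 7 of 9 *Glp1r* sites and 6 of 7 *Sstr2* sites. It was the highest at 4 of 26 *Chrm3* sites, 9 of 26 *Adra2a* sites and 1 of 13 *Sstr1* sites. Over the receptor sites together it was the highest at 37 of 91 (40.7%), near the 36.2% of all sites. Sites of 1 gene share their libraries, so these counts describe that library. *Ffar1* summed to 29.9 CPM in it against 18.3 and 19.0 in the other P10 libraries, *Gipr* to 59.5 against 39.4 and 33.7, *Sstr2* to 68.0 against 49.8 and 45.4 and *Sstr3* to 16.0 against 9.91 and 10.0.

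The starts of β-cell marker genes followed the same library. Of the 9 genes on the β-cell list 6 had a site of the TSS class. These sites summed to 225, 163 and 195 CPM in the adults and 339, 208 and 226 at P10. The most open was *Ins1*, one of the rat insulin genes, with 94.4, 75.1 and 94.9 CPM in the adults and 203, 106 and 134 at P10. *Ins1* carried most of the gap between the ages, whereas *Nkx6-1* had 36.5 ± 3.90 CPM in the adults and 36.3 ± 6.57 at P10 and *Iapp* 38.9 ± 9.72 and 33.3 ± 6.92. *Slc2a2* had no start site, and *Mafa* and *G6pc2* no site at all. Over all 97 β-cell marker sites the sums were 1155, 981 and 1052 CPM in the adults and 1232, 942 and 931 at P10. The part of β-cell share in the receptor values was not tested.

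**Figure D5:**
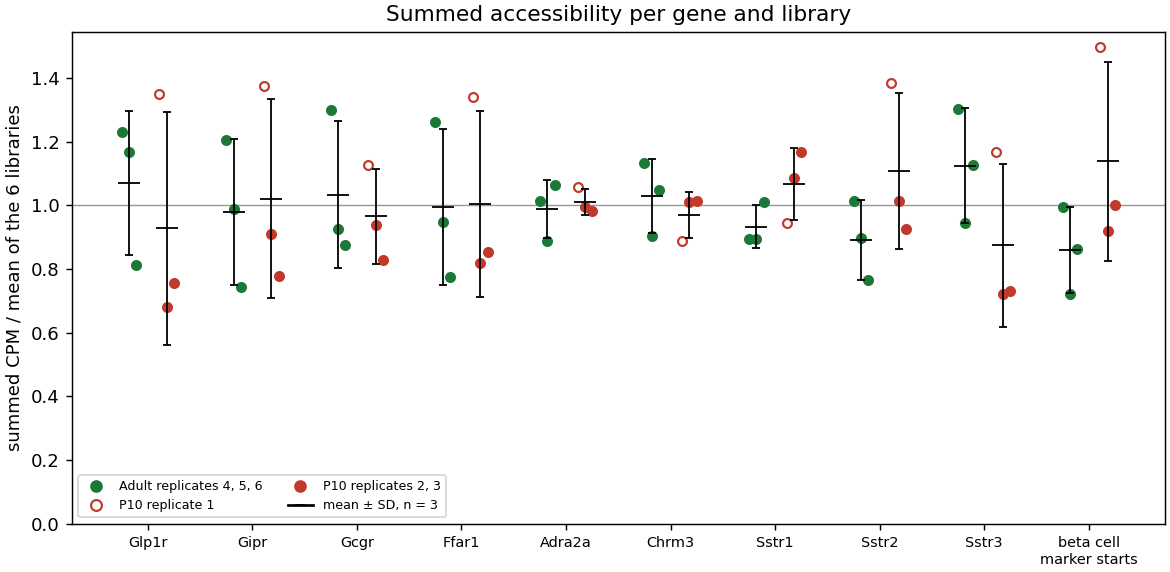
Summed CPM of each receptor gene, and of the 6 β-cell marker starts, in each library, divided by the mean of the 6 libraries; bars are mean ± SD (n = 3). P10 replicate 1 (open circles) is the highest library for *Glp1r*, *Gipr*, *Ffar1*, *Sstr2* and the β-cell marker starts, but is below the other P10 libraries for *Chrm3* and *Sstr1*.

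Endocrine markers were open in every library. The starts of 5 of 6 α-cell genes summed to 126, 108 and 105 CPM in the adults and 118, 120 and 127 at P10, led by *Irx2*. The starts of 4 of 5 δ- and PP-cell genes, the cells that make somatostatin and pancreatic polypeptide, summed to 31.1, 35.1 and 32.5 CPM in the adults and 40.7, 47.6 and 47.0 at P10, led by *Hhex*. *Ppy* had no site. The δ- and PP-cell start sums were higher in every P10 library than in any adult. *Hhex* (9.86 ± 1.96 CPM in the adults, 17.5 ± 3.82 at P10) and *Rbp4* (9.57 ± 1.85 and 13.7 ± 1.29) carried most of the gap. The ages overlapped for *Sst* (2.74 ± 1.43 and 3.64 ± 0.309) and *Ghsr* (10.7 ± 1.05 and 10.3 ± 1.36). Over all sites the δ- and PP-cell list had 267 ± 33.5 CPM in the adults and 268 ± 19.8 at P10. The *Sstr1* sums over all its sites overlapped between the ages. Of its start sites, the one just inside the gene did not overlap, and the one over the start did. The α-cell start sums overlapped, and over all sites that list had 988 ± 71.1 and 816 ± 44.0 CPM. Their part in the receptor values was not tested.

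Markers of other cell types were counted in the same way. The starts of 3 of 6 duct genes summed to 17.5, 20.2 and 19.5 CPM in the adults and 24.7, 34.4 and 34.0 at P10, led by *Cftr*, with *Krt7* without a site. Over all duct sites the order was the other way, with 275, 244 and 277 CPM in the adults and 212, 218 and 236 at P10. The starts of 2 of 9 acinar genes, led by *Ptf1a*, summed to 5.60 ± 1.13 CPM in the adults and 7.70 ± 0.717 at P10, with *Cel*, *Cela1* and *Amy2* without a site. The only immune gene of 7 with a start site was *Cd74*, with 31.9, 26.4 and 36.7 CPM in the adults and 16.2, 15.9 and 17.6 at P10. *Cd68* had no site, and *Ptprc* and *Csf1r* none at their starts. The endothelial starts (2 of 7 genes, led by *Tek*) summed to 27.3 ± 4.14 CPM in the adults and 32.4 ± 3.32 at P10, and the mesenchymal ones (4 of 7, led by *Col1a1*) to 18.9 ± 3.43 and 22.1 ± 2.46. Over all their sites the adults were higher on average for the acinar (349 ± 19.5 against 325 ± 4.41 CPM), endothelial (482 ± 45.1 against 401 ± 9.27) and mesenchymal lists (444 ± 31.0 against 409 ± 6.30). Start sums and sums over all sites therefore differ in direction for these lists. The starts of 6 of 7 proliferation genes had 191 ± 2.41 and 187 ± 18.3 CPM. The part of these cells in the receptor results was not tested.

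The wider receptor pathway was counted in the same fit, on lists drawn up with earlier results of these data known. The shares called stand against 18.9% of all sites (12.3% Up and 6.63% Down) and the medians against -0.01. For each list the site with the smallest p in either direction is given, except that the Up site of the first list was taken from those with the smallest p. Among 45 other islet G protein coupled receptor genes, of which 41 had sites, 36 of 275 sites were Up and 21 Down (20.7%, median log2 fold change -0.02). An Up site lay 171430 bp upstream of *P2ry1*, a receptor gene for ADP, with 9.90 ± 2.24 CPM in the adults and 3.65 ± 0.359 at P10 (1.43, SE 0.27, FDR 6.7e-04). The strongest Down site was the start of *Cckbr*, a receptor gene for gastrin and cholecystokinin, with 2.69 ± 0.985 and 7.22 ± 1.48 CPM (-1.43, SE 0.31, FDR 0.0033).

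Ligand genes had 11 Up and 2 Down of 72 sites from 10 of 13 genes (18.1%, median 0.05), where all sites gave 18.9%, with more Up than Down as well. Neuropeptide Y, which acts through Gi-coupled receptors, is encoded by *Npy*. A site 69133 bp upstream of *Npy* had 11.8 ± 2.42 CPM in the adults and 2.01 ± 0.516 at P10 (2.53, SE 0.29, FDR 1.3e-06). The strongest Down site of a ligand gene lay 25434 bp downstream of *Adcyap1*, which encodes PACAP (-1.33, SE 0.51, FDR 0.109), and stayed called in 3 of the 6 fits with a library left out.

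G protein α subunit genes had 17 Up and 9 Down of 161 sites (16.1%, median -0.05), from 11 of 13 genes. Of the Up calls 11 belonged to *Gnao1*, which had 36 sites. The strongest Up site lay 255928 bp upstream of *Gnao1*, the gene of Gαo, with 20.03 ± 3.07 CPM in the adults and 4.42 ± 0.204 at P10 (2.18, SE 0.23, FDR 5.5e-07). The strongest Down site lay 111408 bp upstream of *Gna14*, which encodes an α subunit of the Gq class (-1.59, SE 0.40, FDR 0.0095).

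Downstream of Gs and Gi, the adenylyl cyclase, protein kinase A and Epac genes, listed with *Creb1*, *Crem* and *Crtc2* of the cAMP response in the nucleus, had 41 Up and 21 Down of 251 sites (24.7%, median -0.004), from 18 of 20 genes. *Prkacb*, a protein kinase A gene, alone gave 16 Up and 13 Down of 87 sites. The strongest Up site lay 254040 bp downstream of *Adcy8*, the gene of a calcium-stimulated adenylyl cyclase, with 35.3 ± 7.88 CPM in the adults and 10.6 ± 1.64 at P10 (1.73, SE 0.21, FDR 2.7e-06). The strongest Down site was upstream of *Adcy1*, with 5.78 ± 0.361 and 14.7 ± 2.38 CPM (-1.34, SE 0.24, FDR 3.7e-04).

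Downstream of Gq, the phospholipase C, IP3 receptor and protein kinase C genes had 10 Up and 22 Down of 126 sites (25.4%, median -0.15), from 9 of 11 genes. Of the Down calls 10 belonged to *Plcb4*, which had 38 sites, and 8 to *Plcb1*, which had 19, so most came from 2 genes of the list. The strongest Up site lay inside *Itpr2*, an IP3 receptor gene, with 13.01 ± 2.60 CPM in the adults and 2.96 ± 2.15 at P10 (2.102, SE 0.33, FDR 1.1e-04). The strongest Down site lay inside *Plcb1*, a phospholipase C gene, with 1.72 ± 1.05 and 6.44 ± 1.08 CPM (-1.91, SE 0.37, FDR 9.3e-04).

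Genes that turn receptor signals off, the receptor kinases, arrestins and RGS proteins, had 9 Up and 6 Down of 81 sites (18.5%, median -0.08), from 11 of 12 genes. *Rgs2*, whose product speeds the shutdown of Gq, had the strongest Up site, 19900 bp upstream, with 35.5 ± 5.38 CPM in the adults and 11.6 ± 0.833 at P10 (1.61, SE 0.19, FDR 2.5e-06). *Grk5*, a receptor kinase gene, had the strongest Down site, inside the gene (-1.58, SE 0.45, FDR 0.0245).

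Of the marker lists, counted over all their sites, the β-cell genes had 14 Up and 13 Down of 97 sites (27.8%), the α-cell genes 22 and 6 of 112 (25.0%), and the δ- and PP-cell genes 1 and 5 of 23 (26.1%), against 18.9% of all sites (12.3% Up and 6.63% Down). The acinar genes had 3 Up and 5 Down of 51 (15.7%), the duct genes 4 and 5 of 38 (23.7%) and the endothelial genes 10 and 3 of 64 (20.3%). The mesenchymal genes had 7 and 5 of 62 (19.4%), the immune genes 2 and 2 of 16 (25.0%) and the proliferation genes 3 and 2 of 25 (20%). Of 4 Schwann and neural marker sites 0 were called by edgeR, DESeq2 or limma voom, and 0 had an unadjusted p under 0.05. *Gcg*, *Sst*, *Ppy* and *Ghsr* each stand in 2 of the lists, so their sites count in both.

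The TSS sites of other genes whose log2 CPM most resembled the *Sstr1* site at chr6:88477162 were those of *Rasgrf2* (Pearson r 0.992), *Fam111a* (0.991) and *Fam198b* (0.991), among 10616 such sites over the 6 libraries. They are the nearest of many candidates over 6 points that differ in age, and are given as a description.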

How the data were processed

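ATAC-seq reads of 6 rat islet libraries were aligned by the authors to Rn5 with BWA 0.7.13, reads of low mapping quality and mitochondrial reads were removed with SAMtools 1.3, and peaks were called with MACS2 2.1.1 on the concatenated libraries of each age (tools from the paper's methods and the submitters' processing notes). Removal of PCR duplicates is not given in the sources used here. The deposited values are whole-number counts of Tn5 integrations per site and library, with no normalization, so depth differs between libraries. The deposited table also holds the authors' own edgeR columns (fold change, abundance, F, p-value and FDR), which were not used, and the nearest gene with its distance, which was.

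Of 101941 entries, 101603 distinct sites entered once, and 338 repeats were dropped. No receptor site was listed more than once. The test was the quasi-likelihood F test of edgeR 4.0.16 in R 4.3.3, with TMM factors, no filter and age as the only term, adjusted by Benjamini-Hochberg over all sites. A site was called at p under 0.05 and FDR under 0.2, the limits of the study. Log2 CPM used a prior count of 2. The script was tested on simulated data. Sums per gene were compared by exact permutation tests in scipy 1.17.1. The adult samples come from 3 rats and the P10 samples from mixed pups of 3 litters. Where P10 samples share litters, p-values measure only the spread between the samples.

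The receptors, the 16 gene lists and the tests were chosen with earlier results of these data known. Named with all libraries were each gene's TSS site with the highest mean count, every called site and, where a gene had neither, its highest site. Sites further named were chosen after their values were seen. The alternatives were DESeq2 1.42.0 (size factors and Wald test), limma 3.58.1 voom, column sums, total reads as library size, a filter on low counts, every listed entry, an FDR of 0.05, sites within 100 kb and each library left out. Genome sequence of Rn5 was not used here, and exon or intron positions were not analysed. Some genes of the lists are not reported here by name.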

Additional observations from a re-analysis of the deposited data

How the results depend on the processing

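The count of 16 called receptor sites (7 Up, 9 Down) was the same, with the same 16 sites, with DESeq2 size factors, the DESeq2 Wald test (4 receptor sites had no adjusted p), a filter on low counts and every listed entry. With limma voom 17 and with column sums 19 were called, among them all 16. Column sums moved the Up share of all calls from 65.0% to 49.3% and the median of all sites to -0.10. With total reads as library size that median moved to -0.84, 58 receptor sites were called (0 Up, 58 Down), and so were 62725 of all sites against 19242. It turned the fold change negative for *Glp1r* at 11768166 (-0.55), *Gipr* at 81340160 (-0.79), *Gcgr* at 109287736 (-0.18) and *Ffar1* at 90465703 (-0.72). *Adra2a* at 282605232 (-0.36) and *Chrm3* at 66068252 (-0.075) and 66216229 (-0.80) turned negative as well. Relative to the shift of the median all of these sites were positive. Total reads are those the paper gives for each whole library, so they also hold reads of low mapping quality and reads outside the sites. Which scaling is nearer to the cells was not tested. At an FDR under 0.05, 10 receptor sites (5 Down) and 9122 of all sites were called, and within 100 kb of a gene 6 of 49 receptor sites were called.

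Leaving out 1 library gave 9 to 20 called receptor sites (4 to 11 Up and 5 to 9 Down) and 11258 to 20447 of all sites, with the lowest counts of called sites without P10 replicate 2 and the highest count of receptor sites without P10 replicate 1. In these fits 8 of the 16 calls held throughout. No paired analysis was possible because the adult replicates are numbered 4 to 6 and the P10 replicates 1 to 3, so no number is shared. Counts of a few integrations a library limit the sites of low openness, and the lowest adult library of the *Sstr1* pair held 2.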
